A study of Rattus norvegicus with 9 samples.

Results

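Oncofetal and preneoplastic liver markers are genes that the fetal liver or foci of altered hepatocytes express and that the adult hepatocyte expresses little or not at all. The 7 genes described here were Dlk1, Gpc3, Cd24, Afp, Igf2, Gstp1 and Ggt1, found by symbol among 17156 gene names listed in the count tables, and all 7 were present. Dlk1, Gpc3 and Cd24 were chosen by their change in these same livers, so their values are given as a description with no test, and only Afp, Igf2, Gstp1 and Ggt1 are read with a test. The RNA came from the livers of male Sprague–Dawley rats, with 3 livers in each of 3 groups. The normal control group received saline. The model group received CCl4, a hepatotoxin that causes fibrosis, by gavage for 9 weeks. The TA group received the same CCl4 and then tormentic acid (TA), a plant triterpenoid, at 3 mg/kg for 6 weeks. That dose is from the series' design text, since the labels name these livers TA1, TA2 and TA3 and give no dose, and they were taken as 1 group. In the labels both CCl4 groups have hepatitis stage liver as their source. Whether CCl4 went on during the TA weeks is not given in the sources used here. Each sample was bulk liver, in which fewer cells of a type and less RNA per cell cannot be told apart.

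In development, hepatoblasts make Dlk1, Gpc3, Afp and Igf2, and these fall silent in rodent hepatocytes around and after birth. Several of them return in hepatocellular carcinoma, and some also mark ductular or progenitor cells of injured liver. Rat Gstp1, the placental form of glutathione S-transferase, and Ggt1, γ-glutamyl transpeptidase, are the classical stains for preneoplastic foci in rat hepatocarcinogenesis, and Ggt1 is also made by bile duct cells.

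Between 13156735 and 18090405 reads were counted per liver. Model liver 1 stood apart from the other livers. Its TMM factor, the edgeR scaling for composition, was 1.695 against 0.8161 to 1.156 in the other 8 livers. The summed level of 10 hepatocyte markers was 37300 CPM (read counts scaled to library size and by TMM) in model liver 1, 107000 and 118000 in the other model livers, 137000 to 175000 in the normal control group and 116000 to 192000 in the TA group, and no hepatocyte marker was at 0 in any liver. Where leaving out model liver 1 moved a fold change or a list count given for Model VS Normal or TA VS Model by over 1.5 times, the value without it is given too. TMM scaling placed the median gene of Model VS Normal at a log2 fold change of 0.02, and scaling by library totals alone placed it at 0.65. For TA VS Model these medians were -0.0038 and -0.48.

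The bases before the annotated gene starts are shown for the 3 members chosen by change, for Gstp1, the member with the largest counts, and for Afp, whose groups overlapped. They are the 250 bases 5′ of the start in RefSeq's table of the rat assembly GRCr8, in which all 7 members had an entry and Igf2 had 2. The windows were chr6:134192347-134192596 on the plus strand for Dlk1, chrX:137157599-137157848 on the minus strand for Gpc3, chr20:48656227-48656476 on the plus strand for Cd24, chr1:210769706-210769955 on the minus strand for Gstp1 and chr14:17875646-17875895 on the minus strand for Afp. Each is written 5′ to 3′ in the direction of its gene, and capitals mark a match on either strand to one of 7 motifs. These were TATAA for the TATA core, GGGCGG for the GC box, TGANTCA for the binding site of AP-1, TGACNNNGC for the core of the antioxidant response element (which can overlap the AP-1 letters), CACGTG for the E-box, GTTAAT for part of the HNF1 site, and the CCAAT box by its own letters.
Dlk1: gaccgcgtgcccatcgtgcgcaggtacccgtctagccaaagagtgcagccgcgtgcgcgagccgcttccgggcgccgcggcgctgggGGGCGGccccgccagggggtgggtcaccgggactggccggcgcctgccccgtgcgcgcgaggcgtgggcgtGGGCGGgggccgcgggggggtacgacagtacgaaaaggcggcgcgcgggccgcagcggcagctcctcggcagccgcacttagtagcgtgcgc
Gpc3: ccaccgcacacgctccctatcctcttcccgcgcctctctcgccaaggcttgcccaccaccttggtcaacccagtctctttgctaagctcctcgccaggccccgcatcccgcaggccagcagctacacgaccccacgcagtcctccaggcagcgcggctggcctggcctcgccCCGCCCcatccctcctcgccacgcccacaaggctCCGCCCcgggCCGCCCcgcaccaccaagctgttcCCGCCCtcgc
Cd24: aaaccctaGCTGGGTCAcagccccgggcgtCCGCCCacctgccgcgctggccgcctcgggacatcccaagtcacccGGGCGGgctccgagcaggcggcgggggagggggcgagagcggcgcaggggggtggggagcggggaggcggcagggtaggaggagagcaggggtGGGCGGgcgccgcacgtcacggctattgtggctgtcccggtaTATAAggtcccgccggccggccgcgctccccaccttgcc
Gstp1: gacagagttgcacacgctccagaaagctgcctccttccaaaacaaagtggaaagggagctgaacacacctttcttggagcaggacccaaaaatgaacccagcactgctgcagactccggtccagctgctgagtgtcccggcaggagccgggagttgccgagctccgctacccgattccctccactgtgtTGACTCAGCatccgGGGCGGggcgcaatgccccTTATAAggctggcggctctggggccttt
Afp: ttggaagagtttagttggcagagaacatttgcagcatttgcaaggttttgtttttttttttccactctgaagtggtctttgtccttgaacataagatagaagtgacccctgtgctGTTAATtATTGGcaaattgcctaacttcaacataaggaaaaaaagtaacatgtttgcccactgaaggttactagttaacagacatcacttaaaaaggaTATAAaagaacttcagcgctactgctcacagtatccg

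The windows of the 3 members chosen by change were rich in GC. The Dlk1 window had 78.0% GC and 41 CpG dinucleotides, and 99.0% of the 33469 promoter windows in the table had fewer. The Cd24 window had 75.6% GC and 28 CpG, and the Gpc3 window had 71.6% GC and 22 CpG, against a median of 51.2% and 5 over all windows. The Afp window had 37.2% GC and 2 CpG. The GC box letters occurred 4 times before Gpc3, 3 times before Cd24, 2 times before Dlk1, once before Gstp1 and once before 1 of the 2 Igf2 starts, and in 30.5% of all windows. No GC box letters were found before Afp or Ggt1. The Gstp1 window held TGACTCA from position -61 to -55, counted from the base before the start as -1, within a longer match TGACTCAGC to the antioxidant response element core. AP-1 letters were in 6.34% and the antioxidant response element core in 10.1% of all windows. The Cd24 window also held the antioxidant response element core and the TATA core, and the Gstp1 window the TATA core. The Afp window held the TATA core, the CCAAT box and the HNF1 motif, found in 24.0%, 34.0% and 6.45% of all windows. A match of letters is a description and not a measured binding site.

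Dlk1, an imprinted, membrane-bound relative of the Notch ligands that marks hepatoblasts, was close to absent in normal livers and present in every model liver. The normal livers held 1, 1 and 0 Dlk1 counts, the model livers 87, 205 and 55, and the TA livers 2, 2 and 1. Each model liver lay far above all of the other livers, while the normal control and TA groups overlapped. Per counted read, the model group held 205 times the Dlk1 of the normal control group (exact 95% interval 56.3 to 1700, from 347 against 2 counts) and 73.2 times that of the TA group (31.0 to 227, from 347 against 5 counts). The ratio of the TA group to the normal control group was 2.8 (0.458 to 29.4). These intervals cover counting error only, not the spread between livers, and the ratios are without TMM. With TMM, the fitted edgeR fold was 121 for the model over the normal control group and 52.0 over the TA group. These fitted folds depend on the prior count. Among the model livers, liver 2 held 63.4% of the group's summed CPM, with 13.5 CPM against 3.9 and 3.89 in livers 1 and 3.

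Gpc3, glypican-3, a heparan sulfate proteoglycan anchored at the surface of fetal liver and hepatocellular carcinoma cells, was higher in the livers of both CCl4 groups. The normal livers had 1.08, 0.966 and 0.755 CPM, the model livers 10.5, 14.7 and 15.4 CPM, and the TA livers 13.5, 6.17 and 8.06 CPM. Every model and TA liver lay above every normal liver, and TA liver 1 lay within the range of the model livers. The log2 fold change was 3.85 (SE 0.35, n = 3 against 3) for Model VS Normal, 3.27 (SE 0.41) for TA VS Normal and -0.54 (SE 0.35) for TA VS Model. In CPM, model liver 1 had the lowest Gpc3 of its group, and the Model VS Normal log2 fold change was 3.98 without this liver. By counts, model liver 1 was the highest, at 235 against 223 and 218 in model livers 2 and 3. FPKM, at 9.65 against 9.17 and 8.78, ordered these livers likewise. In counts, the TA livers held 190, 73 and 108 for Gpc3 beside the 1 to 2 for Dlk1.

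Cd24, a small mucin-like protein bound by P-selectin and Siglec-10 and found on liver progenitor and ductular cells, lay in 3 separate ranges. The normal livers had 3.24, 2.19 and 2.27 CPM, the model livers 23.2, 20.6 and 18.5 CPM, and the TA livers 8.05, 4.14 and 5.15 CPM. None of the 3 ranges overlapped, and the TA group lay between the other groups. The log2 fold change was 3.02 (SE 0.29) for Model VS Normal, -1.84 (SE 0.31) for TA VS Model and 1.15 (SE 0.37) for TA VS Normal. It was 2.91 and -1.74 without model liver 1. How the counting treated reads that also match other copies of a gene is not given in the sources used here.

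**Figure D1:**
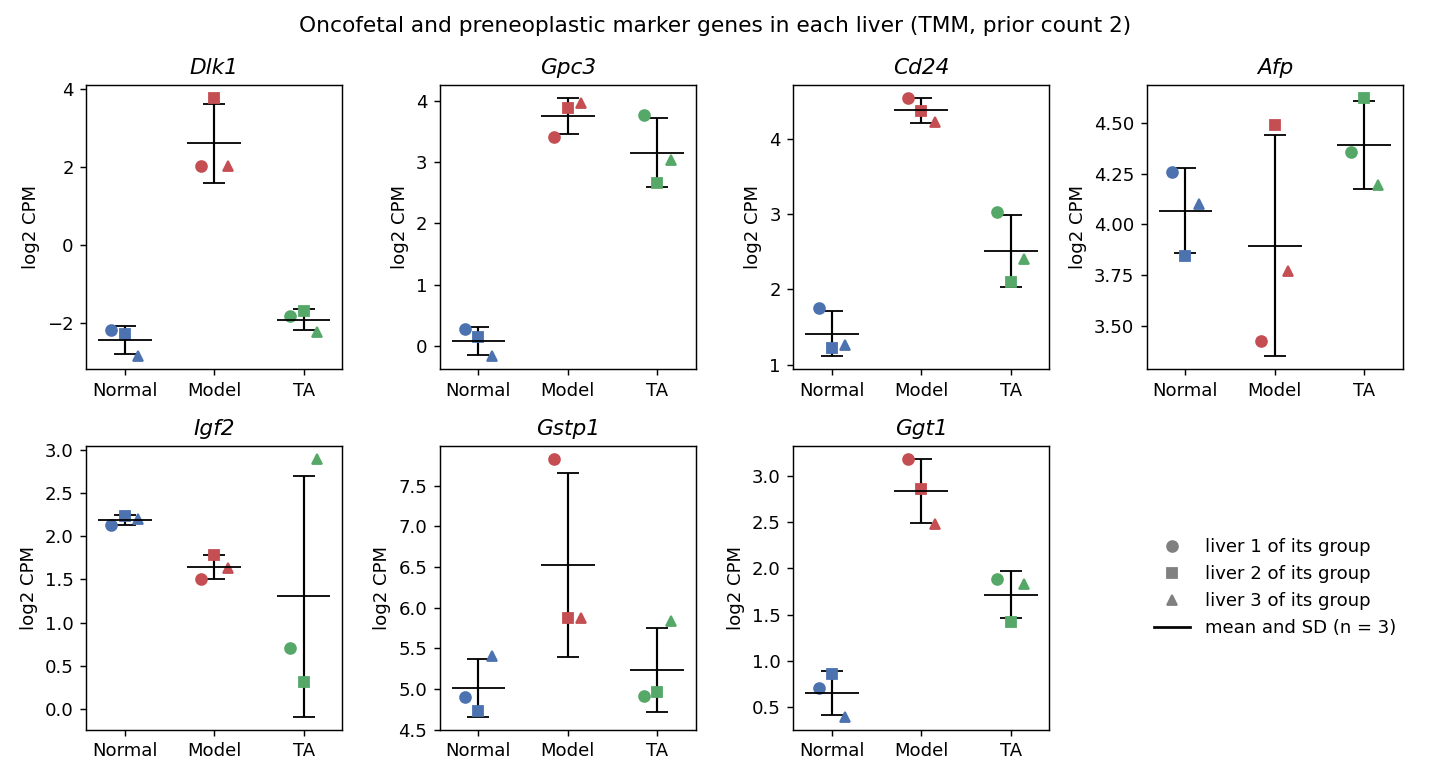
Level of each member in each liver as log2 CPM (TMM over the 9 livers, prior count 2) for the normal control, model and TA groups, with 1 symbol per liver and the mean and SD of 3 livers in black; the y axes differ between panels and do not start at 0. Dlk1 and Cd24 of the model livers sit above all other livers, Gpc3 of the TA livers sits near that of the model livers, and Afp overlaps in all groups.

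Afp, α-fetoprotein, the main plasma protein of the fetus and the serum marker of hepatocellular carcinoma, did not pass the test in any comparison. The normal livers had 19, 14.2 and 17.0 CPM, the model livers 10.6, 22.4 and 13.5 CPM, and the TA livers 20.4, 24.5 and 18.2 CPM. The ranges of all 3 groups overlapped. The log2 fold change was -0.11 (SE 0.32) for Model VS Normal, with an adjusted p of 0.841 (edgeR quasi-likelihood test, Benjamini-Hochberg) and an exact permutation p of 0.6, and it was 0.09 without model liver 1 and 0.46 by library totals alone. The value was 0.45 (SE 0.32, edgeR adjusted p = 0.493) for TA VS Model and 0.3 (SE 0.22, edgeR adjusted p = 0.795) for TA VS Normal. Model liver 2 had the highest Afp as well as the highest Dlk1 of its group.

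Igf2, insulin-like growth factor 2, an imprinted growth factor of fetal tissues, was low in every liver and did not pass the test. The normal livers had 4.24, 4.57 and 4.45 CPM, the model livers 2.69, 3.29 and 2.97 CPM, and the TA livers 1.5, 1.1 and 7.31 CPM. All model livers lay below all normal livers, whereas the TA livers fell on both sides of the other groups and TA liver 3 held 73.8% of its group's sum. TA liver 3 also had a summed level of 3 red cell markers of 1610 CPM, against 261 and 286 CPM in TA livers 1 and 2, 445 to 936 CPM in the model livers and 494 to 853 CPM in the normal livers. No red cell marker was at 0 in any liver, and their part in the Igf2 values was not tested. The log2 fold change for Model VS Normal was -0.56 (SE 0.33, edgeR adjusted p = 0.295). The exact two-sided permutation p was 0.1, the smallest that 3 against 3 livers allow, and the log2 fold change was 0.05 by library totals alone. The TA VS Model value of 0.15 (SE 0.7, edgeR adjusted p = 0.931) turned to -1.18 without TA liver 3. The TA VS Normal value was -0.45 (SE 0.65, edgeR adjusted p = 0.932) and was -1.78 without TA liver 3. The strand setting of the counting is not given in the sources used here, so antisense transcripts at imprinted genes cannot be separated from these counts.

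Gstp1, which conjugates glutathione to electrophiles, was higher in each model liver than in any normal or TA liver, but 1 liver set the size of the difference. The normal livers had 29.7, 26.3 and 42.3 CPM, the model livers 228, 58.3 and 58.2 CPM, and the TA livers 30.0, 31.0 and 56.8 CPM. Model liver 1 held 66.1% of the group's summed CPM, and the other model livers stood only just above TA liver 3. The Model VS Normal log2 fold change of 1.81 (SE 0.57) missed the threshold with an adjusted p of 0.0854 (edgeR), and without model liver 1 it was 0.82 with an adjusted p of 0.0826. It passed in DESeq2 (adjusted p = 0.0159), in limma voom with sample quality weights (log2 fold change 1.07, adjusted p = 0.0177), by library totals alone (2.64, edgeR adjusted p = 0.0423), with all 9 livers in 1 edgeR fit (adjusted p = 0.0498) and without model liver 3 (2.12, edgeR adjusted p = 0.0313). For TA VS Model the log2 fold change was -1.55 (SE 0.59, edgeR adjusted p = 0.288), and -0.56 without model liver 1. For TA VS Normal it was 0.23 (SE 0.3, edgeR adjusted p = 0.922), and -0.13 without TA liver 3. The exact two-sided permutation p was 0.1 for the first 2 of these comparisons, its smallest possible value, and 0.6 for TA VS Normal.

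Ggt1, an enzyme of the cell surface that cleaves extracellular glutathione, was the only one of the 4 tested members that passed in edgeR with TMM, the filter and all livers of only the groups compared, and it did so in Model VS Normal. The normal livers had 1.49, 1.67 and 1.18 CPM, the model livers 8.93, 7.11 and 5.45 CPM, and the TA livers 3.56, 2.54 and 3.43 CPM. As for Cd24, the 3 ranges did not overlap and the TA livers lay between the other groups. Ggt1 rose in the model group by a log2 fold change of 2.3 (SE 0.38, edgeR adjusted p = 0.0171), which was 2.08 without model liver 1. The adjusted p of this edgeR fit was 0.078, 0.0957 and 0.0917 without normal liver 1, 2 and 3, and the log2 fold changes without them were 2.3, 2.4 and 2.14. For TA VS Model the log2 fold change was -1.17 (SE 0.35), with an unadjusted p of 0.0106 and an adjusted p of 0.258 (edgeR). For TA VS Normal it was 1.09 (SE 0.38, edgeR adjusted p = 0.372). The exact two-sided permutation p was 0.1 in all 3 comparisons, the smallest possible.

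**Figure D2:**
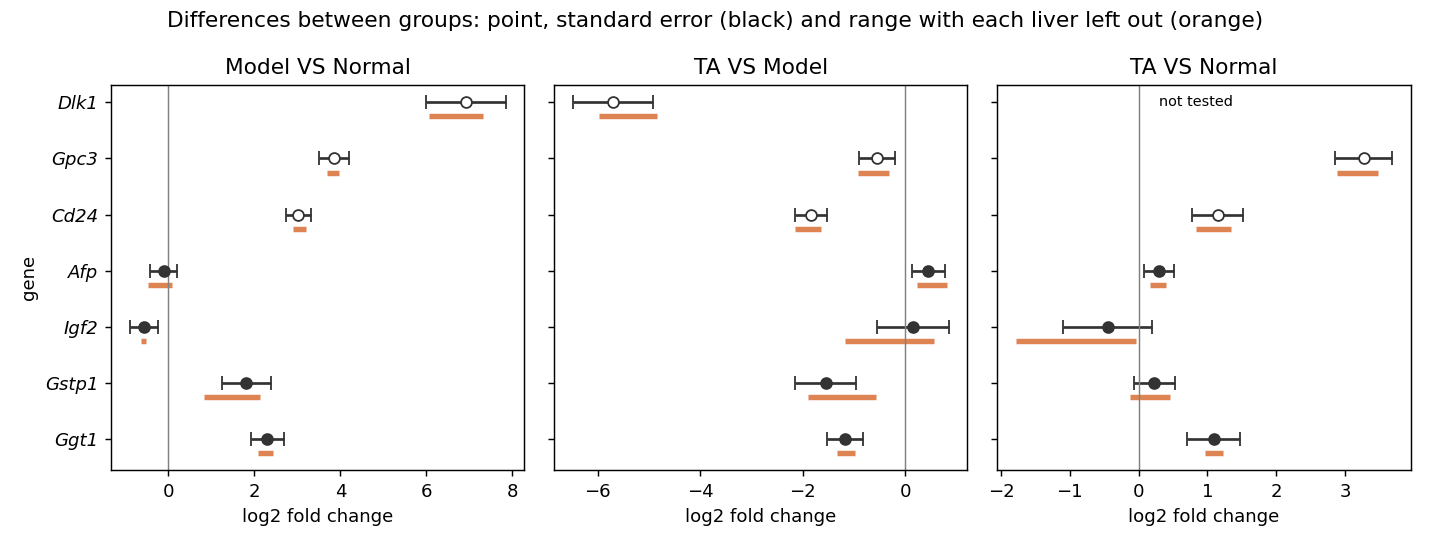
Log2 fold change of each member in Model VS Normal, TA VS Model and TA VS Normal (x axes differ), with its standard error in black and the range with each liver left out in turn in orange; open symbols are the 3 members chosen by change, filled symbols the 4 read with a test. The Gstp1 bar for Model VS Normal runs from 0.82 to 2.13 and the Igf2 bar for TA VS Model spans 0; the fitted Dlk1 points depend on the prior count because the other groups had 0 to 2 counts.

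Over the 7 members, 4 passed with a higher level in Model VS Normal (Dlk1, Gpc3, Cd24 and Ggt1), beside 6.86% of the 12730 genes tested that passed as higher and 1.01% as lower. Since 3 of these 4 were chosen by that change, nothing is read from the count, and 1 of the 4 members read with a test passed. The ranges of 6 members did not overlap in Model VS Normal, beside 38.2% of all genes, a share that covers either direction. The count of 4 members was the same without model liver 1 and was 2, 0 and 0 without normal liver 1, 2 and 3. In TA VS Model no member and 0.0% of the 12781 genes tested passed at an adjusted p under 0.05 in edgeR. An unadjusted p under 0.05 was reached by 1999 genes, and DESeq2 called 541 genes there, with Dlk1 and Cd24, both chosen by their change, and none of the 4 members read with a test. By the thresholds in the study's methods, an unadjusted p under 0.05 and an absolute log2 fold change above 1, 4 members were lower in the TA group (Dlk1, Cd24, Gstp1 and Ggt1), beside 10.2% of all genes lower and 2.11% higher. Of these 4, Dlk1 and Cd24 were chosen by their change, and 2 of the 4 members read with a test were lower. That count of 2 was 0 without model liver 1, where Ggt1 was at -0.97 and Gstp1 at -0.56, and it was 1 (Ggt1) without TA liver 1, without TA liver 2, with the replicate block and in limma voom, and 3 (with Igf2) without TA liver 3. The ranges of the same 4 members did not overlap, beside 23.1% of all genes. In TA VS Normal, 6 members had enough counts to be tested, and Dlk1 did not. Of these, 1 passed as higher (Gpc3), beside 0.23% of 12179 genes higher and 0.0328% lower, and it no longer passed without normal liver 1, 2 or 3 or TA liver 1. Since Gpc3 was chosen by its change, nothing is read from this count, and 0 of the 4 members read with a test passed. Gpc3, Cd24 and Ggt1 did not overlap between the TA and normal control groups, beside 14.9% of all genes. With the replicate number as a block the genes called in TA VS Normal went from 32 to 203, and the members called stayed at 1. Model VS Normal and TA VS Model share the model livers, so the values in both are set side by side and were not related to each other.

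Levels were compared between genes as FPKM, which divides by gene length. Gstp1 was the highest of the 7 members in each group, at 32.7, 29.4 and 44.9 FPKM in the normal livers, 500, 87.6 and 79.6 in the model livers and 38.8, 36.1 and 67.6 in the TA livers. In the normal livers the order was Gstp1, Afp, Cd24, Ggt1, Igf2, Gpc3 and Dlk1, and only the ranges of Ggt1 and Igf2 overlapped between neighbours. In the model livers Cd24, Afp, Gpc3, Ggt1 and Dlk1 followed Gstp1, and each of these overlapped with its neighbour. Their values ran from 2.55 FPKM (Dlk1, liver 3) to 21.3 FPKM (Cd24, liver 1), with Igf2 below them at 0.554 to 0.807 FPKM. In the TA livers the order was Gstp1, Afp, Gpc3, Cd24, Ggt1, Igf2 and Dlk1, in which the ranges of Gpc3, Cd24 and Ggt1 overlapped between neighbours. Gpc3 therefore stood next to last in the normal livers and behind only Gstp1 and Afp in the TA livers, and Dlk1 was last in both.

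**Figure D3:**
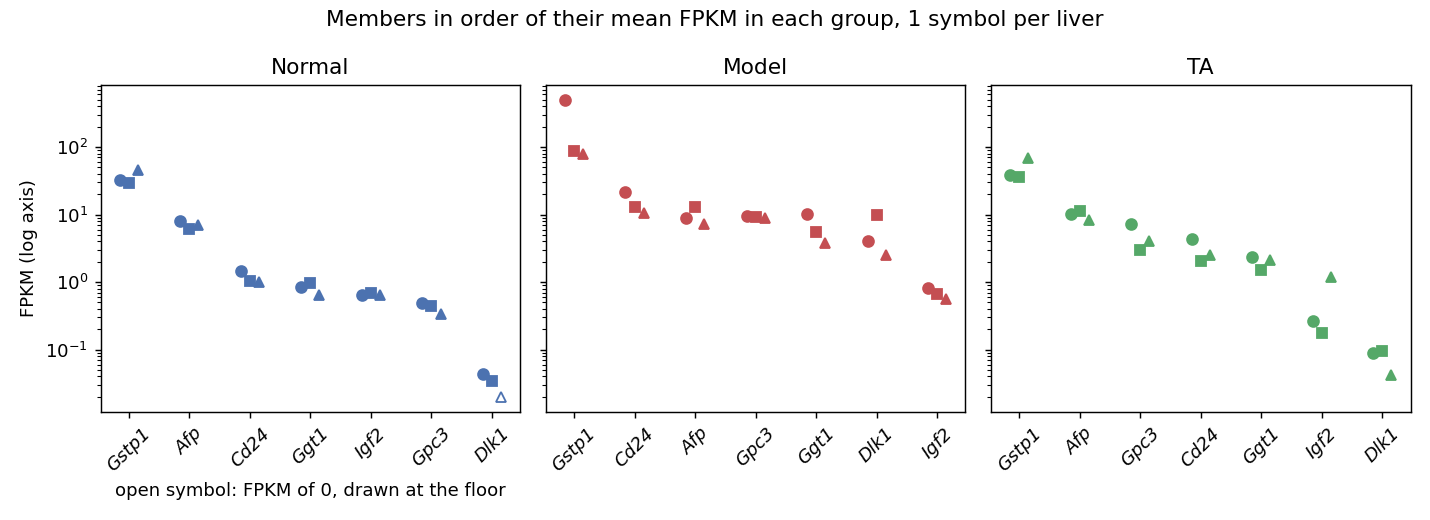
FPKM of the 7 members on a log axis, ordered by their mean within the normal control, model and TA groups, with 1 symbol per liver (circle 1, square 2, triangle 3) and an FPKM of 0 drawn open at the lower edge. Gstp1 leads each group, 5 members crowd together in the model livers, and Dlk1 is last in the normal and TA livers.

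The fetal and oncofetal genes listed beside the members had 2 higher and 1 lower of 7 tested in Model VS Normal, and 1 higher and 1 lower without model liver 1. Of the 12 list genes in the table, 5 were left out by the filter on low counts. The 2 higher genes, Cldn6 and Igdcc4, had too few counts in the normal and TA livers to be tested in TA VS Normal. Nothing is therefore read from the count of higher genes, and the values of these 2 genes are a description. Cldn6, a tight junction protein of embryonic epithelia, had 5, 3 and 9 counts in the normal livers, 301, 156 and 93 in the model livers and 12, 7 and 17 in the TA livers. It rose in the model group by 4.49 (log2, SE 0.56, edgeR adjusted p = 0.0104), and 4.21 without model liver 1. Igdcc4, an immunoglobulin superfamily receptor, had 4, 1 and 0, then 222, 34 and 21, and then 8, 8 and 8 counts in the same order, and its log2 fold change was 5.08 (SE 1.14, edgeR adjusted p = 0.0395), or 3.75 without model liver 1. Igf2bp3, a fetal RNA-binding protein that binds Igf2 mRNA, went the other way. It had 80, 134 and 64 counts in the normal livers, 23, 32 and 24 in the model livers and 75, 89 and 28 in the TA livers, and fell by 2.1 (log2, SE 0.42, edgeR adjusted p = 0.0293). The same 3 genes had TA VS Model log2 fold changes of -3.47, -2.89 and 1.63, with Igdcc4 at -1.58 without model liver 1. By the study's thresholds 3 genes of the list were lower in TA VS Model and 1 was higher, or 2 and 1 without model liver 1. Cldn6 and Igdcc4 were among the lower genes, so nothing is read from the count of lower genes either.

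The imprinted growth genes, to which Dlk1 and Igf2 belong by function, had 0 of 8 tested genes passing in Model VS Normal in edgeR, with 5 at an unadjusted p under 0.05 and 3 (2 higher, 1 lower) passing in DESeq2. Sgce, a sarcoglycan, was at 2.16 (SE 0.61, edgeR adjusted p = 0.0673), Grb10, an adaptor that restrains insulin receptor signalling, at 1.73 (SE 0.55, edgeR adjusted p = 0.0888) and Peg3, a zinc finger protein, at -1.18 (SE 0.41, edgeR adjusted p = 0.111) on the log2 scale. Grb10 had 30.5, 9.41 and 7.0 CPM in the model livers against 4.7 to 4.76 CPM in the normal livers, and its log2 fold change was 0.78 without model liver 1. By the study's thresholds 3 of 8 genes of this list were lower in TA VS Model, and 0 without model liver 1.

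The enzymes that mark altered liver foci beside Gstp1 and Ggt1 had 1 of 10 tested genes higher and 0 lower in Model VS Normal in edgeR. An unadjusted p under 0.05 was reached by 5 of them in edgeR, and DESeq2 called 3 higher and 2 lower. The gene that passed in edgeR was Abcc3, an export pump for bile salts and conjugates, with 3.32, 1.67 and 4.53 CPM in the normal livers, 15.9, 19.2 and 8.13 CPM in the model livers and 8.9, 3.72 and 3.28 CPM in the TA livers. It rose by 2.19 (log2, SE 0.47, edgeR adjusted p = 0.0359). Akr7a3, an aflatoxin aldehyde reductase, was at -1.25 (SE 0.41, edgeR adjusted p = 0.0952). Of the 10 genes tested, 3 were lower in TA VS Model by the study's thresholds and 0 were higher.

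Genes of the members' own families and their binding partners had 0 of 9 and 0 of 10 tested genes passing in Model VS Normal in edgeR, 4 and 3 at an unadjusted p under 0.05, and 4 and 3 in DESeq2. Gpc2, another glypican, had 0, 1 and 5 counts in the normal livers, 46, 33 and 15 in the model livers and 4, 8 and 10 in the TA livers. Its log2 fold change of 3.45 (SE 0.92, edgeR adjusted p = 0.059) is a description, since Gpc2 had too few counts to be tested in TA VS Normal. Igf1, the postnatal liver relative of Igf2, was at -1.42 (SE 0.41, edgeR adjusted p = 0.0694) and Ggt7 at 1.95 (SE 0.58, edgeR adjusted p = 0.0745), or 1.33 without model liver 1. Of the partners, Selp, the P-selectin that binds Cd24, was at -1.27 (SE 0.4, edgeR adjusted p = 0.0854), Hhip, a hedgehog-binding protein, at -3.03 (SE 0.99, edgeR adjusted p = 0.0969), or -2.36 without model liver 1, and the receptor Notch3 at 2.56 (SE 0.99, edgeR adjusted p = 0.135), or 0.36 without model liver 1. In TA VS Model 2 of 10 family genes and 1 of 9 partners were lower by the study's thresholds, and 1 and 0 without model liver 1. These 2 family genes, Gpc2 among them, had too few counts to be tested in TA VS Normal, so nothing is read from their count. In TA VS Normal no gene of these 5 lists passed in edgeR. At an unadjusted p under 0.05 there were 1 fetal and oncofetal gene, 0 imprinted genes, 2 foci enzymes, 2 family genes and 1 partner, and with the replicate block 2 foci enzymes passed as lower, while DESeq2 called 1 foci enzyme as lower. Of all list calls in Model VS Normal, none held without normal liver 2 or without normal liver 3, since no gene of the whole table passed in edgeR then, while 2727 and 3119 genes had an unadjusted p under 0.05.

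Several lists of markers of other liver cells also differed between the groups, and other lists did not. Of the biliary and ductular cell list, 6 of 8 tested genes rose in Model VS Normal. Among them were Cftr (log2 fold change 4.25, SE 0.45), Prom1 (3.58, SE 0.6) and Krt7 (7.46, SE 0.87, or 6.68 without model liver 1), with edgeR adjusted p of 0.00871, 0.0182 and 0.00925. Krt7 had 1, 0 and 2 counts in the normal livers, and it had too few counts to be tested in TA VS Normal. The summed level of its 9 genes was 39.3 to 62.5 CPM in the normal livers, 2030, 252 and 160 CPM in model livers 1, 2 and 3, and 63.4 to 78.0 CPM in the TA livers. Spp1, osteopontin, which other cells than bile duct cells also make, was 1850 CPM of the sum in model liver 1. Without Spp1, a sum chosen after the values were seen, the other 8 genes had 185, 206 and 133 CPM in model livers 1, 2 and 3, 37.5 to 56.9 CPM in the normal livers and 59.4 to 61.8 CPM in the TA livers. Of the stellate cell and myofibroblast list 5 of 9 genes rose, and its sum was 211 to 312, then 12300, 1170 and 1430, and then 639 to 1150 CPM, with Lum at 0 in normal liver 1. Of the mesothelium list, 2 of 3 tested genes rose, and the sum of its 6 genes was 0.839 to 12.6 CPM, then 48.5, 98.6 and 35.4 CPM, and then 13.8 to 23.4 CPM, with Upk1b and Lrrn4 at 0 in all normal livers. Of the neutrophil list 3 of 4 tested genes and of the dividing cell list 2 of 6 rose. However, 1 of these 3 neutrophil genes had 2, 1 and 0 counts in the normal livers. It had too few counts to be tested in TA VS Normal, so nothing is read from its rise. The hepatocyte list had 0 of 10 passing in edgeR, 0 also at an unadjusted p under 0.05 and 3 lower in DESeq2, with a median of -0.91. In TA VS Model 7 of 8 biliary, 7 of 9 stellate, 2 of 4 mesothelium, 2 of 4 neutrophil and 6 of 6 dividing cell genes were lower by the study's thresholds. Without model liver 1 the stellate count was 1 and the mesothelium count 1. Krt7 and Lum were among the lower genes but had too few counts to be tested in TA VS Normal, so nothing is read from their fall. By the same thresholds some endothelium genes were higher in the TA group and none was lower, and macrophage genes went both ways. In Model VS Normal 1 of 7 macrophage genes passed in edgeR. None of the B and plasma cell, T and NK cell, endothelium, pancreas and red cell genes did. An unadjusted p under 0.05 was reached by 3 endothelium genes (2 higher, 1 lower) and by none of the other 4 of these lists, and likewise 3 and 0 passed in DESeq2. Of the 7 macrophage genes, 5 had an unadjusted p under 0.05 in edgeR, with 4 higher and 1 lower. Without model liver 1, 3 macrophage genes (1 higher, 2 lower) and 1 B and plasma cell gene passed in edgeR. The part of these cells in the members' values was not tested.

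**Figure D4:**
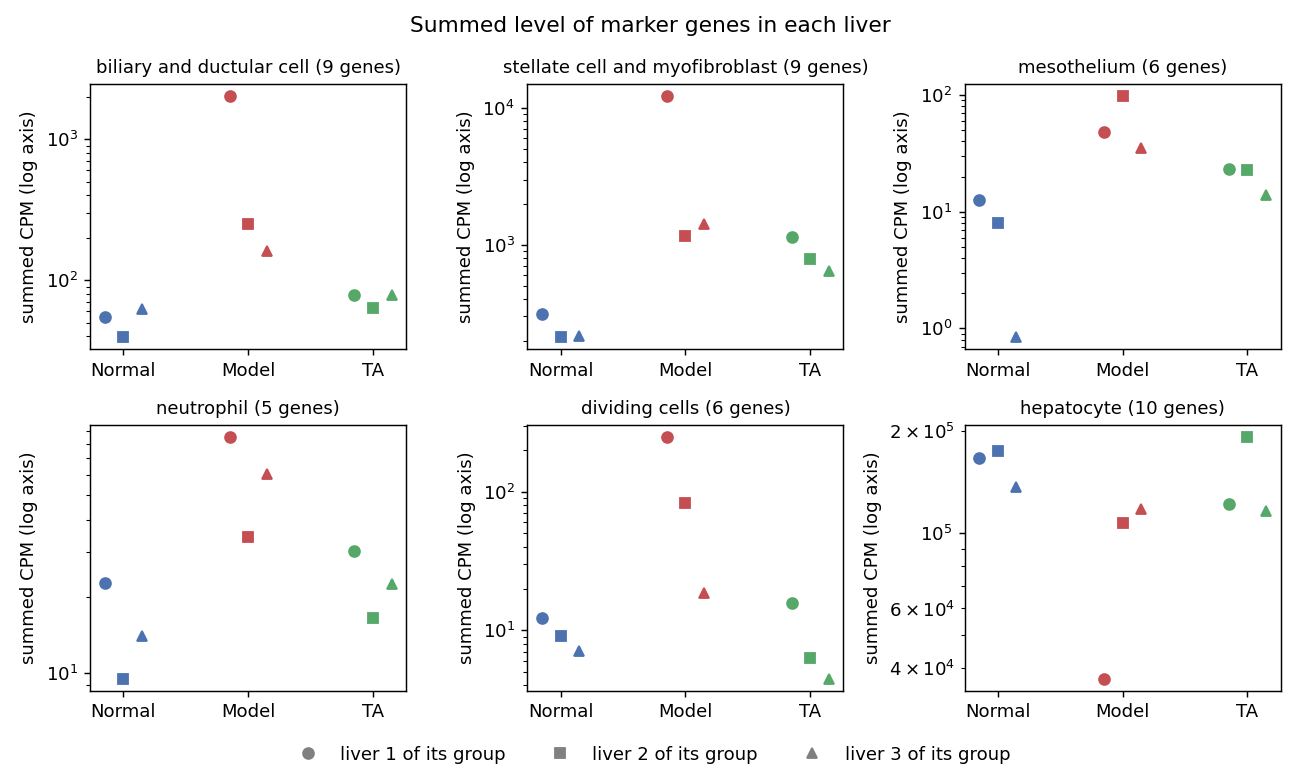
Summed CPM (log axis) of 6 lists of cell type markers in each liver of the normal control, model and TA groups, with 1 symbol per liver. Model liver 1 (circle) has the highest biliary, stellate, neutrophil and dividing cell sums, the biliary sum there being mostly Spp1, and the lowest hepatocyte sum, whereas model liver 2 (square) has the highest mesothelium sum.

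The members did not all follow model liver 1. Gstp1, Cd24 and Ggt1 were highest there, as was the stellate sum, but Dlk1 was at 3.9 CPM in model liver 1 and 3.89 CPM in model liver 3. Without TMM, Dlk1 was higher in model liver 1 than in model liver 3, at 87 against 55 counts and 4.1 against 2.55 FPKM. In CPM, Dlk1 and Afp were highest in model liver 2, which also had the highest mesothelium sum and the highest biliary sum without Spp1. By counts and FPKM, Dlk1 and Afp were highest in model liver 2 too. Gpc3 was lowest in model liver 1 by CPM but highest there by counts and FPKM. Over the 9 livers, the genes whose log2 CPM was most like that of Dlk1 by Pearson r among 7959 genes compared were Epcam (Pearson r = 0.963, Spearman rho = 0.883), Tpm1 (0.961, 0.867) and Zfp703 (0.953, 0.9). By rho, 158, 214 and 117 genes ranked above these 3, so the order rests on the measure. Those most like Gpc3 were Adamtsl2 (r = 0.993, rho = 1.0), Ltbp1 (0.993, 0.967) and Aldh1a3 (0.985, 0.95), and those most like Cd24 were Cxcl16 (0.98, 1.0), Anxa5 (0.974, 1.0) and Cd44 (0.969, 0.933), which had 176 genes above it by rho. These values describe 9 points that share 3 group means. After each group's mean was subtracted the leading genes were others, namely Spsb4 for Dlk1 (r = 0.959), Rps27l for Gpc3 (r = 0.934) and Ly6e for Cd24 (r = 0.983). Between members, r was 0.917 for Dlk1 with Cd24 and 0.967 for Cd24 with Ggt1 over the 9 livers, and 0.0789 and 0.569 after the group means were subtracted. Dlk1 with Afp had r of -0.238 before and 0.839 after that step. Each normal and TA liver had 0 to 2 Dlk1 counts. After that step the r of Dlk1, also with Spsb4, therefore rests mostly on the model livers, at log2 CPM of 2.015, 3.769 and 2.01.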

How the data were processed

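RNA of 9 rat livers (3 normal control, 3 model, 3 TA) was sequenced by the authors as paired reads from a NEBNext library, mapped with STAR and counted with HTSeq-count. Per the study's methods the reference was human and per the labels it was mouse (mm9), while the symbols are those of the rat, so the build is unclear and no coordinates were taken from the files. The authors deposited raw counts per gene, not normalized, in 2 tables that share the model libraries, with 16938 and 16948 genes. The authors also deposited FPKM, used here to compare levels between genes and, for Dlk1, Gpc3 and Afp, to order the model livers. The 12 columns of normalized values per liver and the columns of the authors' own fold changes and p-values were not used. Groups came from the labels, which number the libraries as replicates and do not name the animals, so p-values measure the spread between these libraries. Depth was 13156735 to 18090405 counted reads.

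Counts were tested with edgeR 4.0.16 (R 4.3.3, limma 3.58.1) by its quasi-likelihood test in the default form, with TMM, filterByExpr and only the livers of the groups compared, and called at a Benjamini-Hochberg adjusted p under 0.05. TA VS Normal used the 16730 genes in both tables. The alternatives were DESeq2 1.42.0, limma voom with sample quality weights, other scalings, no filter, all livers in 1 fit, the newer form of the fit, a replicate block and leaving out each liver. The test was checked on simulated data. Single members were also compared by an exact two-sided permutation test of mean log2 CPM, whose smallest p is 0.1. The deviations of same-numbered livers had r of 0.233, 0.37 and 0.452 in TA VS Normal and of -0.0547 to 0.213 in the other comparisons. The main fits did not take the livers as pairs in any comparison. The replicate number was a block only in the alternative fit. Of the names, 15601 (90.9%) matched RefSeq. Protein sequences were not used here. The genes named were the members and, of each fixed list, up to 3 with the largest absolute log2 fold change among those passing in Model VS Normal, filled by the smallest unadjusted p. Some genes of the lists are not reported here by name. For cell types named genes were limited to the biliary list. The genes most alike had a mean log2 CPM of at least 3. The members and lists were chosen with earlier results of these data known.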

Additional observations from a re-analysis of the deposited data

How the results depend on the processing

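Ggt1 kept its direction in Model VS Normal in all 14 alternatives and lost its call only without normal liver 1, 2 or 3. Depth limits Dlk1, which had at most 2 counts in each normal and TA liver. The genes called in Model VS Normal (1002) were 2654 by DESeq2, 3433 by limma voom, 1980 by library totals alone and 1757 with all 9 livers in 1 fit. In TA VS Model (0 genes) they were 541 by DESeq2 and 169 by limma voom, and 2 members were called by each, Dlk1 and Cd24, both chosen by their change. In TA VS Normal (32 genes) they were 360 by DESeq2, 126 by limma voom, 56 by library totals alone, 76 without the filter, 14 with all 9 livers in 1 fit and 203 with the replicate block, which changed no call of a member in any comparison. The block gave 1216 genes for Model VS Normal and 0 for TA VS Model. Leaving out each liver gave 0 to 2537 genes in Model VS Normal, with 51, 0 and 0 without normal liver 1, 2 and 3, 589 without model liver 2 and 2537 without model liver 3. It gave 0 to 1 in TA VS Model and 1 to 61 in TA VS Normal, and 0 to 5, 0 to 0 and 0 to 1 members called. In TA VS Normal the genes called were 4, 1, 10 and 3 without normal liver 1, 2, 3 and TA liver 1, and 61 without TA liver 3.

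The direction reversed only where no call was made. Afp in Model VS Normal became 0.2 by limma voom, 0.46 by library totals alone and 0.09 without model liver 1 (from -0.47 to 0.09 over the livers left out). Igf2 in Model VS Normal became 0.05 by library totals alone. Igf2 in TA VS Model became -0.98 by limma voom, -0.32 by library totals alone, -0.34 with the replicate block and -1.18 without TA liver 3 (-1.18 to 0.57). Gstp1 in TA VS Normal became -0.13 without TA liver 3 (-0.13 to 0.45). Library totals did not shift all genes alike. In Model VS Normal they moved Afp from -0.11 to 0.46 and Gstp1 from 1.81 to 2.64. The cause of the reversals was not tested.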
